A study of Mus musculus with 6 samples.

Results

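The segments of the T cell receptor alpha and delta genes were followed in RNA from DN3a thymocytes. These are precursors within the CD4- CD8- stage, which have not yet assembled an alpha chain. Members were all rows of the deposited transcript table whose gene name begins with Tra or Trd followed by v, d, j or c. The pattern matched 201 transcripts of 179 gene symbols. Of these, 4 transcripts belonged to Tradd, an adaptor of the TNF receptor on chromosome 8, which was left out. The remaining 197 transcripts formed 178 genes, of 41254 gene symbols in the table, and 0 of them carried the status that marks a failed estimate. They comprised 99 alpha V segments, 10 V segments whose symbol names both chains (written with dv), 5 delta V segments, 2 delta D segments, 2 delta J segments, 59 alpha J segments and the alpha constant gene Trac. Trdc, the delta constant gene, was not analysed here.

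All 6 libraries came from adult C57BL/6 mice, with 3 libraries labelled wild type and 3 labelled Tg_Cd2_GATA3, called transgenic here. The labels give no more about the transgene than this name, and they do not say whether each library is a separate animal, so p-values measure the spread between these libraries. The study's title concerns GATA3 abundance and allelic exclusion at the beta locus, and the alpha and delta segments are read here in the same comparison.

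The alpha and delta chains are encoded in a single locus, with the delta D, J and constant segments lying between the V block and the alpha J segments. In thymocytes at the DN stages the recombinase joins delta V, D and J segments, and an alpha V to J joining follows at the double positive stage and deletes the delta segments in between. V segments can also be transcribed before they are joined, and a V segment encodes most of the variable domain, whereas D and J segments supply only the short stretch that completes it.

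The delta D and J segments are shown because they are far shorter than the V segments. They were read from GENCODE M21 transcripts (build GRCm38, that is mm10), plus strand of chromosome 14, at chr14:54113468-54113478 for Trdd1, chr14:54122226-54122241 for Trdd2, chr14:54123138-54123188 for Trdj1 and chr14:54136779-54136837 for Trdj2. Capitals mark the J motif, searched in any frame on the transcript strand only: a codon that begins with TT (phenylalanine or leucine), a glycine codon (GGN), any codon and another glycine codon. The motif is a hallmark of J segments.
Trdd1: atggcatatca
Trdd2: atcggagggatacgag
Trdj1: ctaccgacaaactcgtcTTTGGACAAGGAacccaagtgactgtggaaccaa
Trdj2: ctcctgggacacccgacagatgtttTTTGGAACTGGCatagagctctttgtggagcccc
The motif was present in 2 of 2 delta J segments, in 45 of 59 alpha J segments (76.27%) and in 1 of 127 V transcripts (0.79%).

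The last 90 coding bases of 3 related shared V segments are shown because Trav15-2-dv6-2 held the most fragments of its class and the 3 passed the filter on low counts. Trav15-2-dv6-2 ends at chr14:53649905-53649994, Trav15-1-dv6-1 at chr14:53560158-53560247 and Trav15d-1-dv6d-1 at chr14:52863847-52863936, all on the plus strand of GRCm38. Capitals in the latter 2 sequences mark bases that differ from Trav15-2-dv6-2.
Trav15-2-dv6-2: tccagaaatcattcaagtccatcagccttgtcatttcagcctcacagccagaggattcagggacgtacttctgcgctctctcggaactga
Trav15-1-dv6-1: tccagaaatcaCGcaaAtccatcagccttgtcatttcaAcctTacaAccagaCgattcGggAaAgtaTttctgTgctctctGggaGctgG
Trav15d-1-dv6d-1: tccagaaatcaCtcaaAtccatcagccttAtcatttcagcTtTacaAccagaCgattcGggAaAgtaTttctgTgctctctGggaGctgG
Each of the latter 2 differed from Trav15-2-dv6-2 at 15 of these 90 bases, an identity of 83.33%.

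The pair of delta V segments Trdv2-2 (chr14:53961513-53961602, plus strand) and Trdv2-1 (chr14:53946571-53946660, plus strand) is shown because the transgenic libraries held more of the first, and fragments of the second were found in transgenic libraries alone. Capitals mark the 4 bases at which Trdv2-1 differs from Trdv2-2, an identity of 95.56%.
Trdv2-2: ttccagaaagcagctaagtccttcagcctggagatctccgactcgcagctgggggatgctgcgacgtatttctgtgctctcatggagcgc
Trdv2-1: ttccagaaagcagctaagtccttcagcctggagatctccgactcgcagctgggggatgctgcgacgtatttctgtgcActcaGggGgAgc

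Fragments of the 178 members were few, and almost all of them lay in V segments. Of the 178 genes, 50 had a fragment in any library and 128 had none. Fragments were found in all 6 libraries for 17 genes and in 1 to 5 libraries for 33. All members together held 5659 of the fragments, in libraries of 39022281 to 46985605 fragments. With 3 fragments as the limit that a count of 0 allows, a gene listed at 0 could reach 0.0646 to 0.0766 CPM (fragment counts scaled by TMM-normalised library size) in a library, a limit that covers counting error only.

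None of the 59 alpha J segments, 27 to 72 bases long, had a fragment in any library, and neither did Trdd1 (11 bases), Trdd2 (16 bases) or Trdj2 (59 bases). The J alpha segments were at 0 from Traj61 at the delta end to Traj1 beside Trac, so their position in the array could not be read. Trdj1 had 1 fragment, in transgenic replicate 1, on a transcript of 51 bases. The deposited FPKM (fragments scaled by transcript length and library size) of that single fragment was 127694, and Trdj1 was at 0 in the other 5 libraries.

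Detection elsewhere in the table also moved with transcript length. Of 851 other transcripts of at most 75 bases, 28 had a fragment (3.29%), against 27.3% of those over 150 and up to 300 bases, 51.6% of those over 300 and up to 500 bases and 66.4% of those over 500 bases. Among the D and J segments of alpha and delta the share was 1.59% (1 of 63), and among the V segments it was 42.1% (48 of 114). Most V transcripts are over 300 and up to 500 bases long. The D and J segments of the beta and gamma loci, which are of like length, had fragments in 8 of 20 rows, with 27 fragments in all. The part of length in the zeros of the D and J segments was not tested.

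**Figure D1:**
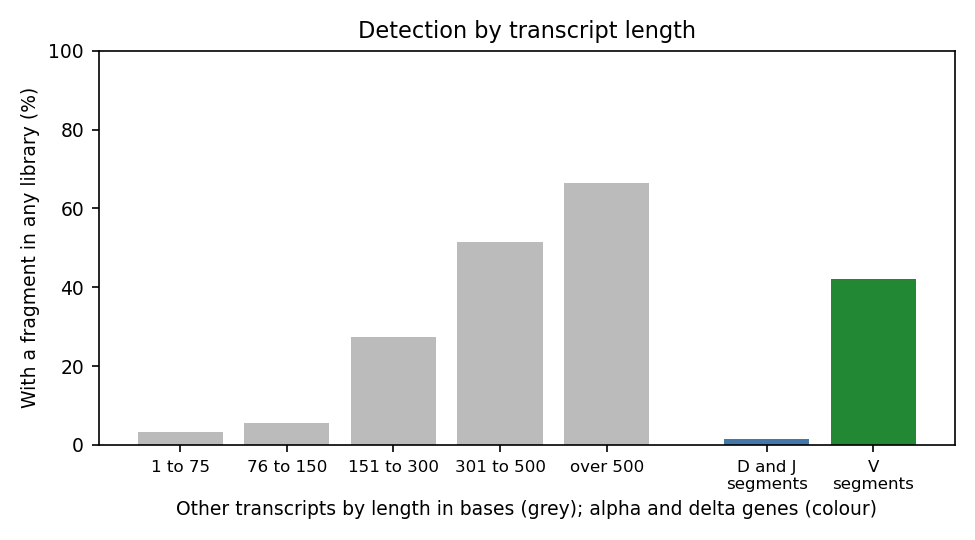
Share of transcripts with a fragment in any of the 6 libraries, by transcript length in bases for the rest of the table (grey bars), and for the alpha and delta D and J segments and V segments (coloured bars, counted as genes). The D and J segments, at 1.59%, lie near the 3.29% of other transcripts of at most 75 bases, and the V segments reach 42.1%. The D and J segments of the beta and gamma loci, not drawn apart, had fragments in 8 of 20 rows.

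Delta-named V segments made up most of the V signal. The 15 segments with delta in their symbol (5 delta and 10 shared) held 70.1% of the 5554 V fragments, and 14 of them had a fragment, with a median of 157 fragments summed over the 6 libraries. The 99 alpha V segments held 29.9%, and 34 of them had a fragment, with a median of 0. The top 3 V segments (Trdv5, Trav15-2-dv6-2 and Trdv2-2) carried 43.7% of all V fragments, and the top 6 carried 63.2%. These shares include 946 fragments of Trdv5, which overlaps Trdc on the opposite strand, so some of them may belong to Trdc. Wild-type replicates 1, 2 and 3 had fragments of 23, 35 and 28 V segments, and transgenic replicates 1, 2 and 3 had fragments of 25, 29 and 28, so the number of V segments seen overlapped between the groups.

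Most fragments lay toward the delta end of the V block. The V block runs toward Trdd1, and the distance of each V segment was taken from its end to Trdd1. The 20 segments at 250 to 500 kb held 57.7% of the V block's fragments, with 17 of them detected, and the 6 segments within 250 kb held 22.2%, with 4 detected. Beyond 500 kb, 43 segments at 500 to 1000 kb held 10.6% (12 detected) and 44 segments at 1000 to 1700 kb held 9.53% (14 detected).

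Copies of the V array complicate this order. The mouse V block was duplicated, and the copies carry d or n in their symbols. The 35 d-named segments, between 52710913 and 53079045 on chromosome 14, had 380 fragments (12 segments detected), the 28 n-named segments had 239 (6 detected), and the 46 alpha and shared segments with neither letter had 3122 (26 detected). Many copies share sequence: in GENCODE M21 transcripts the V segments without a fragment had a median of 93.4% of their 50-base words also present in another gene, with 30 of 64 sharing all of them. In the V segments with a fragment the median was 48.2%, with 7 of 47 sharing all. The sources used here do not say how the authors' counting assigned reads that fit several copies, so values of single copies are uncertain where this share is high.

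**Figure D2:**
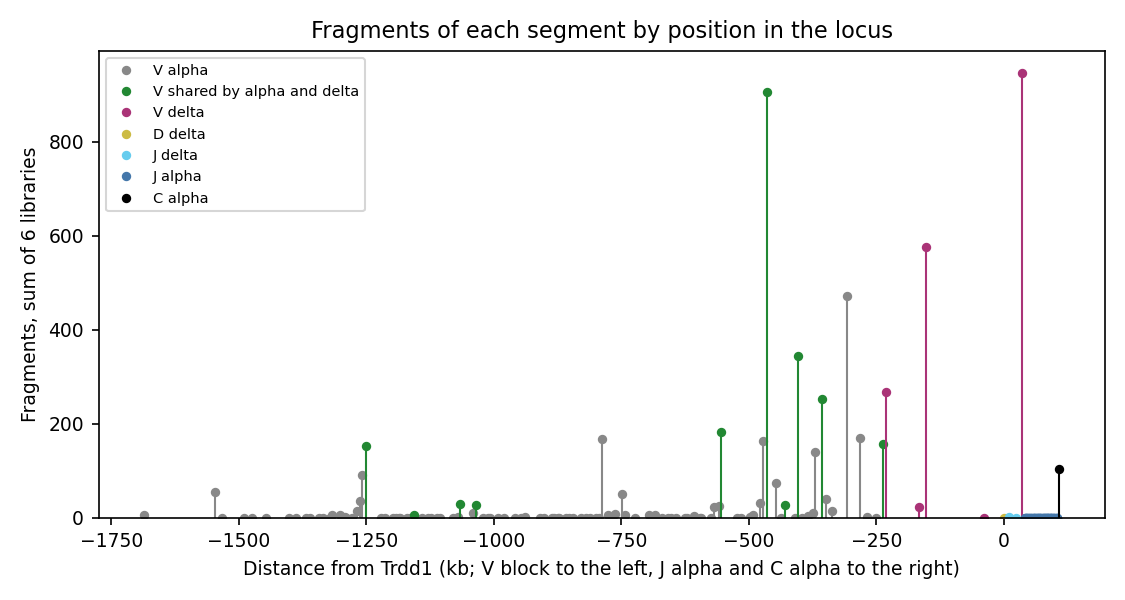
Fragments of each segment summed over the 6 libraries (vertical axis) against its distance from Trdd1 in kilobases (horizontal axis, V block at left, alpha J segments and Trac at right), coloured by class. The tall stems stand within 500 kb of Trdd1, where segments of the V block held 57.7% (250 to 500 kb) and 22.2% (within 250 kb) of its fragments, and at Trdv5 just beyond the delta J segments.

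Per length, Trac was low beside the constant genes of the beta and gamma chains. In FPKM, wild-type replicates 1, 2 and 3 had 2.05, 1.18 and 0.858 of Trac, and transgenic replicates 1, 2 and 3 had 1.37, 0.419 and 1.86. The means were 1.36 ± 0.616 and 1.22 ± 0.731 (SD, n = 3 each), with overlapping groups. Trbc1 and Trbc2, the beta constant genes, stood at 518 ± 137 and 745 ± 63.2 FPKM in wild type, and the gamma constant genes Tcrg-C1, Tcrg-C2, Tcrg-C3 and Tcrg-C4 at 479.6 ± 18.0, 472 ± 35.6, 6.52 ± 2.67 and 184 ± 36.1. Tcrg-C3 was thus the nearest of them to Trac. In these bulk samples, fewer cells with an alpha transcript and less of it per cell cannot be told apart.

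Among the V segments, on the FPKM scale, Trdv5 was highest in both groups (means of 19.1 in wild type and 21.8 in transgenic), followed in wild type by Trav15-2-dv6-2 (11.8), Trdv2-2 (8.10) and Trav17 (6.09). The value of Trdv5 is limited by its overlap with Trdc, described below. In the transgenic libraries Trdv2-2 (13.96) and Trav15-2-dv6-2 (13.7) were close to each other, with Trav17 at 8.70. The 34 alpha V segments with a fragment had a median of group means of 0.145 in wild type and 0.240 in transgenic. The 10 shared segments had medians of 2.18 and 2.67, and the 4 delta V segments with a fragment had medians of 5.39 and 9.70.

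Of the 178 members, 18 passed the filter on low counts and entered edgeR's quasi-likelihood test over 14653 genes, and 160 did not. None of the 18 was called at a Benjamini-Hochberg adjusted p of 0.05, where 0.0136% of all tested genes were called (2 genes). At an unadjusted p under 0.05, 1 member passed (Trdv2-2), as did 1966 of all genes. Limma on log2(FPKM + 0.1) and log2(FPKM + 0.5) called 0 of 18 members with a mean FPKM of 1 or more, where it called 0.0334% and 0.0167% of 11987 genes. That set held Trav2 and Trdj1, the latter through its single fragment, in place of Trav14d-1 and Trav7n-6. DESeq2 without its filter on mean counts called 0 of 50, where it called 1.62% of 20807 genes. DESeq2 with that filter called 5.23% of 9511 genes but gave no adjusted p for any member. In edgeR's fit the log2 changes of its 18 members had a median of 0.24, with 11 above 0 and 7 below. Over all genes the median was 0.00, with 7360 above 0 and 7293 below. Groups did not overlap for 1 of the 18 members (higher in transgenic), where 8.73% of all genes were apart in that direction, 10.1% in the other and 18.8% in either.

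**Figure D3:**
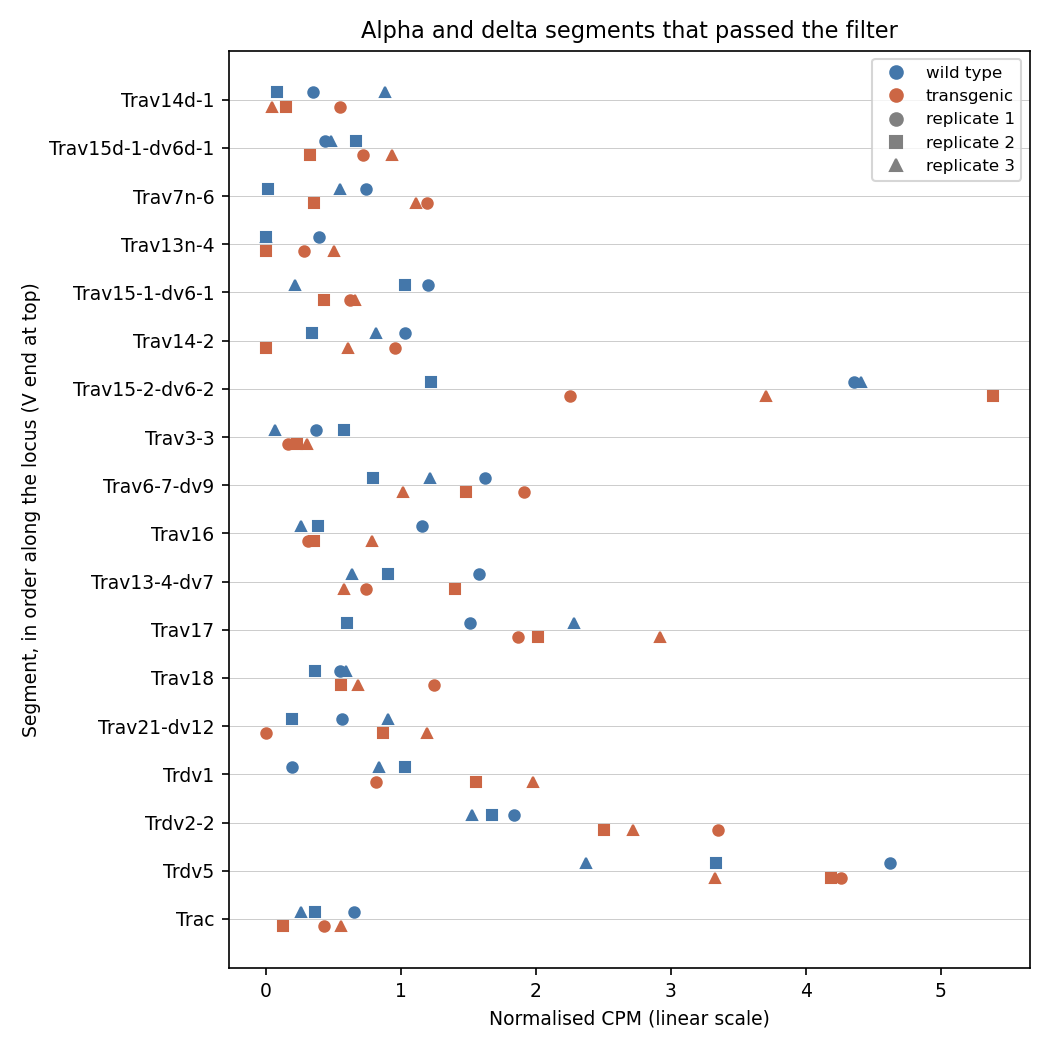
Normalised CPM on a linear scale (horizontal axis) of the 18 segments that passed the filter on low counts, in order along the locus, with 1 point for each library coloured by group and shaped by replicate number. Trdv2-2 is the member whose 3 transgenic points all lie above its 3 wild-type points, and Trav15-2-dv6-2 spans 1.23 to 5.39.

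Trdv2-2, a delta V segment at chr14:53960993-53961599, gave the clearest separation. Wild-type replicates 1, 2 and 3 had 84, 78 and 69 fragments, and transgenic replicates 1, 2 and 3 had 140, 98 and 107. Every transgenic library was above every wild-type library. On the CPM scale the means were 1.68 ± 0.156 in wild type and 2.86 ± 0.442 in transgenic (SD, n = 3 each). The fitted log2 change was 0.76 (SE 0.28), with an adjusted p of 0.277 by edgeR's test, so it was not called. Over the 15 alternatives the log2 change lay between 0.64 and 0.87 and the smallest adjusted p was 0.182. The authors' deposited table gives 8.10 FPKM in wild type and 13.96 in transgenic for Trdv2-2, a log2 change of 0.78, with a q-value of 0.998.

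Trdv2-1, whose end differs from that of Trdv2-2 by the 4 bases marked above, was below the filter. It had 0 fragments in the 3 wild-type libraries, and 0, 17 and 6 in transgenic replicates 1, 2 and 3. Transgenic replicate 1 was thus at 0 like the wild-type libraries, and the groups overlapped. Without the filter, edgeR gave an unadjusted p of 0.0254 and an adjusted p of 0.359. In the authors' deposited table it is the only alpha or delta member marked significant, with 0 FPKM in wild type, 0.922 in transgenic and a q-value of 0.0218. Trdv2-1 shares 61.8% of its 50-base words with Trdv2-2, and Trdv2-2 shares 52.6% with Trdv2-1. Summed, the pair had 84, 78 and 69 fragments in wild type and 140, 115 and 113 in transgenic, with CPM means of 1.68 ± 0.156 and 3.05 ± 0.262, a ratio of 1.82 with groups apart.

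Trdv1, a delta V segment at chr14:53881532-53882217 with no 50-base word shared with another gene, had 9, 48 and 38 fragments in wild-type replicates 1 to 3 and 34, 61 and 78 in transgenic replicates 1 to 3. Transgenic replicate 1 lay below 2 of the wild-type libraries, and wild-type replicate 1 was the lowest. The CPM means were 0.691 ± 0.438 and 1.45 ± 0.591 (SD, n = 3 each), and the log2 change was 1.07 (SE 0.63), with an adjusted p of 0.514 by edgeR's test. Without wild-type replicate 1 and transgenic replicate 3, the libraries with Y-linked RNA, it was 0.34. Trdv4 (chr14:54075004-54075515), the V block segment nearest to Trdd1, had 0 fragments in all 6 libraries, although it shares no 50-base word with another gene.

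Trdv5, at chr14:54148662-54149201, lies beyond the delta constant gene in the opposite orientation. Its fragments numbered 211, 155 and 107 in wild type and 178, 164 and 131 in transgenic, and the groups overlapped. The CPM means were 3.44 ± 1.13 and 3.93 ± 0.520 (SD, n = 3 each), with a log2 change of 0.19 (SE 0.28) and an adjusted p of 0.829 by edgeR's test. In GENCODE M21, 207 of the 345 coding bases of Trdv5 (60.0%) overlap Trdc, which is annotated on the opposite strand at chr14:54142851-54148868. The sources used here do not say whether the authors counted by strand, so fragments of Trdv5 and of Trdc cannot be told apart over that stretch.

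The shared V segments can be joined to either alpha J segments or delta D and J segments. Trav15-2-dv6-2 (chr14:53649387-53649993), of the Vdelta6 family, held the most fragments among them, 199, 57 and 199 in wild-type replicates 1 to 3 and 94, 211 and 146 in transgenic replicates 1 to 3. Wild-type replicate 2 and transgenic replicate 1 were the low libraries, and the groups overlapped. Its CPM means were 3.33 ± 1.82 and 3.78 ± 1.57 (SD, n = 3 each), with a log2 change of 0.18 (SE 0.47) and an adjusted p of 0.912 by edgeR's test. The direction turned when wild-type replicate 2 (-0.21) or transgenic replicate 2 (-0.16) was left out.

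The related Trav15-1-dv6-1, in the part of the array without copy letters, had 55, 48 and 10 fragments in wild type and 26, 17 and 26 in transgenic, with a log2 change of -0.52 (SE 0.67). Its copy Trav15d-1-dv6d-1 had 20, 31 and 22 in wild type and 30, 13 and 37 in transgenic, with a log2 change of 0.32 (SE 0.60), and it shares 84.2% of its 50-base words with Trav15n-1. Groups overlapped for both, and the sign of the latter turned when transgenic replicate 3 was left out (-0.013).

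Trav6-7-dv9 had 74, 37 and 55 fragments in wild type and 80, 58 and 40 in transgenic, with a log2 change of 0.28 (SE 0.43). Trav13-4-dv7 had 72, 42 and 29 in wild type and 31, 55 and 23 in transgenic, with a log2 change of -0.19 (SE 0.54). Trav21-dv12, the shared segment next to Trdv1, had 26, 9 and 41 in wild type and 0, 34 and 47 in transgenic, with a log2 change of 0.30 (SE 1.10). In each of these 3 the groups overlapped, and for Trav21-dv12 transgenic replicate 1 stood at 0 where the other transgenic libraries were among the highest.

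The other 4 shared segments were below the filter. Trav4-4-dv10 had 8, 5 and 4 fragments in wild type and 0, 5 and 5 in transgenic, with overlapping groups. Trav14d-3-dv8 had 21 fragments in wild-type replicate 2 and 6 in transgenic replicate 3, and Trav16d-dv11 had 17 in wild-type replicate 2 and 12 in transgenic replicate 2, with 0 elsewhere for both. Trav15d-2-dv6d-2 had 4 in wild-type replicate 2 and 2 in transgenic replicate 1. The latter 3 segments were each seen in a single library of either group.

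Of the alpha V segments, 8 passed the filter. Trav17 (chr14:53806525-53807115), with no 50-base word shared with another gene, had the most, with 69, 28 and 103 fragments in wild type and 78, 79 and 115 in transgenic. Its CPM means were 1.47 ± 0.841 and 2.27 ± 0.570 (SD, n = 3 each), with a log2 change of 0.63 (SE 0.47) and an adjusted p of 0.616 by edgeR's test, and wild-type replicate 3 lay among the transgenic libraries. Trav18, also without shared words, had 25, 17 and 27 in wild type and 52, 22 and 27 in transgenic, with a log2 change of 0.72 (SE 0.57). The groups overlapped in both.

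The remaining alpha V segments that passed the filter varied widely within each group. Trav7n-6 had 34, 1 and 25 fragments in wild type and 50, 14 and 44 in transgenic, with a log2 change of 1.02 (SE 0.92). Of the 50-base words of its GENCODE M21 transcript, 99.7% lie also in C920008G01Rik. The deposited transcript, 1410 bases long, extends to 53326237 on chromosome 14, whereas the GENCODE gene ends at 53325208. The counted sequence beyond that end was not compared. Trav14-2 had 47, 16 and 37 in wild type and 40, 0 and 24 in transgenic (log2 change -0.48, SE 1.03). Trav16 had 53, 18 and 12 in wild type and 13, 14 and 31 in transgenic (log2 change -0.32, SE 0.73).

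Trav14d-1 had 16, 4 and 40 fragments in wild type and 23, 6 and 2 in transgenic (log2 change -0.79, SE 1.01), and all of its 50-base words recur in Trav14n-1, which was at 0 in every library. Trav3-3 had 17, 27 and 3 in wild type and 7, 9 and 12 in transgenic (log2 change -0.54, SE 0.83). Trav13n-4 was at 0 in wild-type replicates 2 and 3 and in transgenic replicate 2, with 18, 12 and 20 fragments in wild-type replicate 1 and transgenic replicates 1 and 3. The adjusted p of these 6 segments lay between 0.696 and 0.901 by edgeR's test, and the groups overlapped in all.

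Below the filter, 32 members had a fragment, with totals of 1 to 54 over the 6 libraries and 12 of them seen in a single library. The 5 alpha V segments of highest mean CPM among them were Trav2, Trav14-3, Trav13d-1, Trav13-2 and Trav14-1. Trav2, at the far end of the V block, had 12, 5 and 0 fragments in wild type and 22, 7 and 8 in transgenic. Trav13-2 had 23 fragments in wild-type replicate 2 and 9 in transgenic replicate 2 and was at 0 in the other 4 libraries.

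Trac (chr14:54220521-54223097) encodes the constant part of the alpha chain, which every joined alpha transcript carries. It had 30, 17 and 12 fragments in wild type and 18, 5 and 22 in transgenic, with overlapping groups. The CPM means were 0.430 ± 0.204 and 0.373 ± 0.222 (SD, n = 3 each). The log2 change was -0.20 (SE 0.73), with an adjusted p of 0.940 by edgeR's test, and it turned to 0.24 without wild-type replicate 1 and to 0.21 without transgenic replicate 2.

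**Figure D4:**
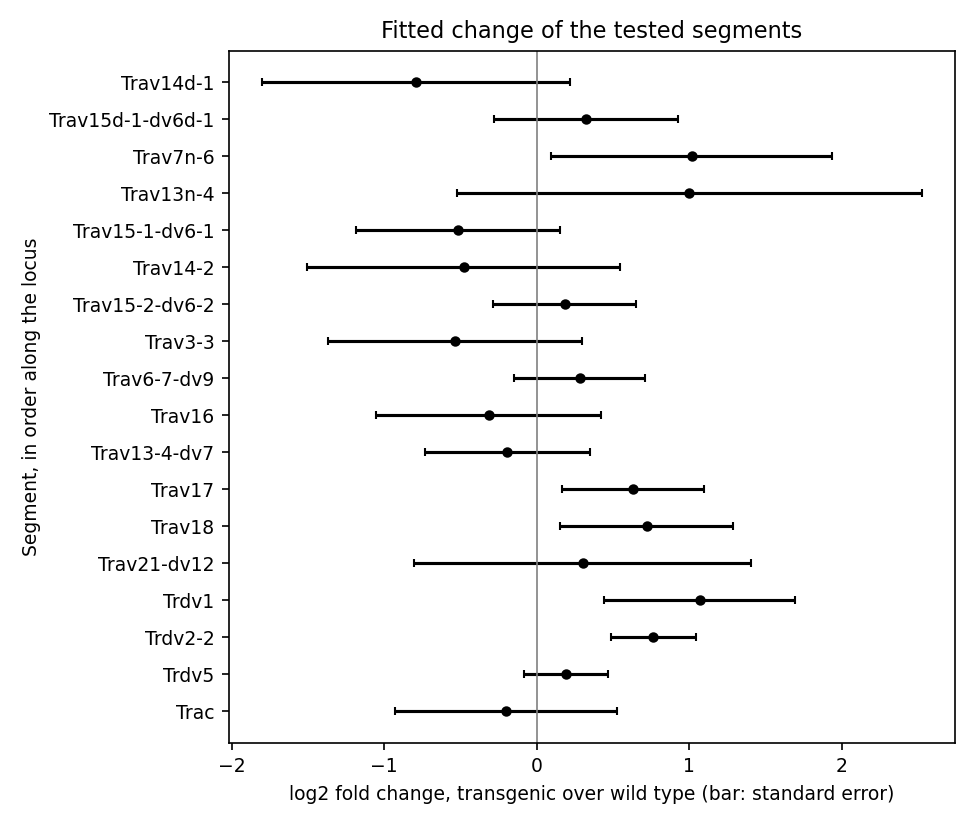
Fitted log2 fold change, transgenic over wild type (horizontal axis), with its standard error as a bar, of the 18 tested segments in order along the locus. The 3 delta V segments lie above 0 (1.07 for Trdv1, which is 0.34 without the libraries with Y-linked RNA, 0.76 for Trdv2-2 and 0.19 for Trdv5), and none of the 18 was called.

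Summed by class, the delta V segments separated the groups, although none of the 3 tested was called and Trdv2-2 alone had groups apart. In CPM the 5 delta V segments came to 6.66, 6.05 and 4.74 in wild-type replicates 1 to 3 and 8.43, 8.69 and 8.18 in transgenic replicates 1 to 3. The groups were apart, with means of 5.82 ± 0.981 and 8.43 ± 0.252 (SD, n = 3 each), a ratio of 1.45. Groups were apart, in either direction, for 18.8% of all tested genes. These sums are described without a test, since the members were chosen with earlier results known.

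Without Trdv5, part of which overlaps Trdc, the sum was 2.04, 2.71 and 2.37 in wild type and 4.17, 4.50 and 4.85 in transgenic. The means were 2.37 ± 0.336 and 4.51 ± 0.342, a ratio of 1.90, with the groups apart. The 6 V block segments within 250 kb of Trdd1 were a set formed after the levels were seen. Trdv5, on the other side of Trdd1 at 35.5 kb, is not among them. The set came to 2.61, 2.90 and 3.28 in wild type and 4.17, 5.36 and 6.05 in transgenic, a ratio of 1.77. That set without Trdv1 kept the groups apart (ratio 1.67), whereas without Trdv2-2 they overlapped (ratio 1.87).

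The alpha V, shared V and Trac sums overlapped between the groups. The alpha V segments came to 6.73, 4.39 and 6.53 CPM in wild type and 8.29, 4.83 and 8.05 in transgenic, with means of 5.88 ± 1.30 and 7.06 ± 1.93 (SD, n = 3 each) and a ratio of 1.199. The shared V segments came to 9.95, 5.83 and 7.97 in wild type and 6.30, 10.3 and 8.38 in transgenic, with means of 7.92 ± 2.06 and 8.34 ± 2.02 and a ratio of 1.05. V segments at 250 to 500 kb had a ratio of 1.10 and those beyond 500 kb had a ratio of 1.13, with overlapping groups for both. The whole V block of 113 segments, which leaves out Trdv5 but holds the other delta V segments, came to 18.7, 12.9 and 16.9 CPM in wild type. In transgenic it came to 18.8, 19.7 and 21.3 (ratio 1.23). Its groups were apart by a narrow margin only, with 18.72 in wild-type replicate 1 against 18.76 in transgenic replicate 1. Whether the delta V sum moved differently from the alpha or shared sums was not tested.

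**Figure D5:**
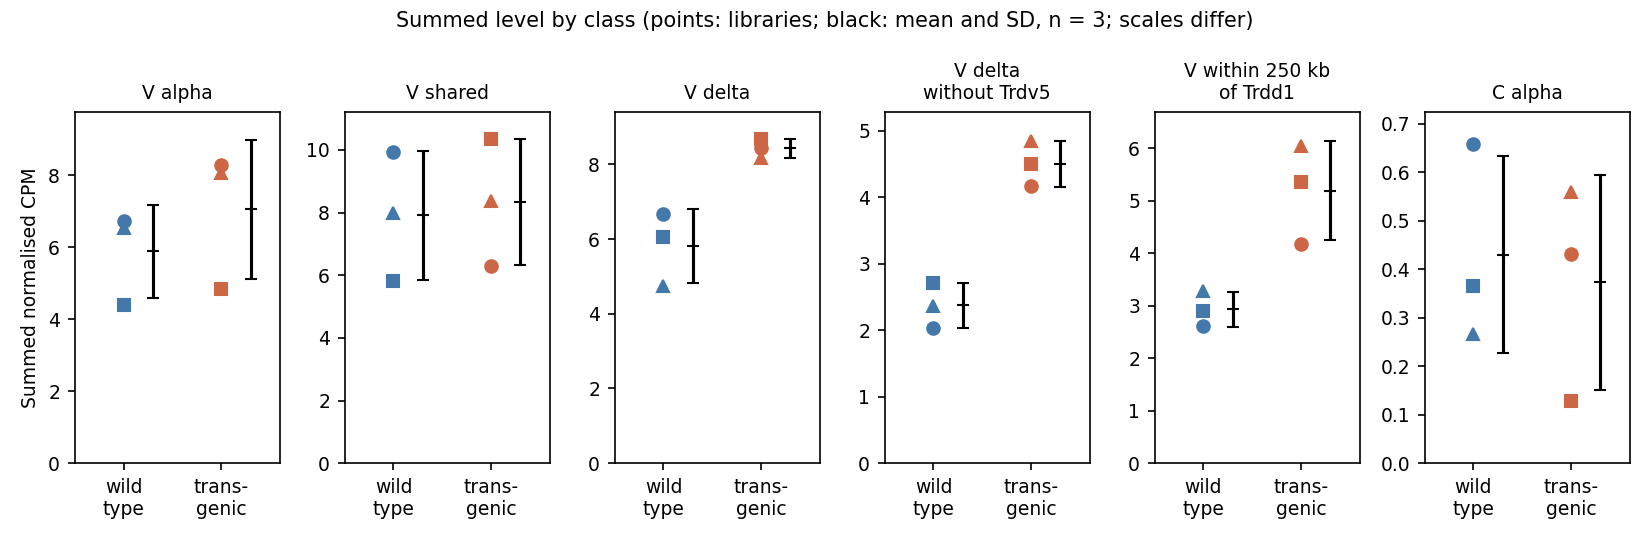
Summed normalised CPM (vertical axes, which start at 0 and differ in scale) by class and group, with points for libraries and black bars for the mean and SD (n = 3). Groups are apart for the delta V segments (ratio 1.45), the same without Trdv5 (1.90) and the V block segments within 250 kb of Trdd1 (1.77, Trdv5 not included). The alpha V segments, shared V segments and Trac overlap.

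As shares of all V fragments, the delta V segments made up 28.5, 37.2 and 24.6% in wild-type replicates 1 to 3 and 36.6, 36.4 and 33.2% in transgenic replicates 1 to 3. The shared segments made up 42.6, 35.8 and 41.4% in wild type and 27.4, 43.4 and 34.1% in transgenic. The alpha segments made up 28.8, 27.0 and 33.9% in wild type and 36.0, 20.2 and 32.7% in transgenic. The shares of all 3 classes overlapped between the groups.

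The spread between libraries was wide for these segments. The median biological coefficient of variation of the 18 tested members was 52.8%, against 12.9% over all tested genes. The trend for genes of like abundance was itself high, from 26.5% at Trdv5 to 60.2% at Trav13n-4, so much of the gap to 12.9% goes with low abundance. The coefficient lay above that trend in 11 of the 18 (61.1%), compared with 20.8% of all genes. The libraries that stood low differed from segment to segment, with wild-type replicate 2 lowest for Trav15-2-dv6-2 and wild-type replicate 1 lowest for Trdv1.

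Genes beside the locus were read from the same fit. Of 16 neighbours, 14 were tested and 0 were called by edgeR, with 7 above 0 and 7 below, and a median log2 change of 0.00. At an unadjusted p under 0.05 there were 5 of the 14 (35.7%), against 13.4% of all tested genes. Groups were apart for 7 of the 14 (3 higher and 4 lower in transgenic), against 18.8% of all genes. Dad1, next to Trac across the alpha enhancer, was at 35.6 ± 1.58 CPM in wild type and 34.1 ± 0.967 in transgenic (SD, n = 3 each), a log2 change of -0.06 (SE 0.08). The 3 of smallest p were Supt16 (log2 change -0.22, SE 0.06), Abhd4 (0.46, SE 0.14) and Haus4 (-0.20, SE 0.07), with adjusted p of 0.187, 0.204 and 0.265. The groups were apart in all 3. Abhd4, which follows Dad1, stood at 16.3, 11.5 and 14.3 CPM in wild type and 19.2, 19.8 and 18.9 in transgenic.

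Of 20 factors known to act on the alpha or delta enhancer or on recombination, all were tested and 0 were called by edgeR, with 12 above 0 and 8 below. At an unadjusted p under 0.05 there were 5 of the 20 (25.0%), Gata3 among them, against 13.4% of all tested genes. Groups were apart for 1 gene higher (Gata3) and 1 gene lower (Ctcf) in transgenic, against 18.8% of all genes in either direction. Gata3 itself, which binds both enhancers, stood at 49.1, 38.2 and 43.5 CPM in wild-type replicates 1 to 3 and 58.6, 53.6 and 61.6 in transgenic replicates 1 to 3. Every transgenic library was above every wild-type library, with a log2 change of 0.41 (SE 0.10) and an adjusted p of 0.170. Myb (0.22, SE 0.07, adjusted p 0.2501) and Rad21, a cohesin subunit (-0.24, SE 0.08, adjusted p 0.255), came next by p.

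Rag1 and Rag2, the recombinase subunits, had log2 changes of -0.08 (SE 0.06) and 0.05 (SE 0.08). Ctcf, whose product holds loops within the locus, was at 229 ± 6.86 CPM in wild type and 208 ± 0.415 in transgenic, with the groups apart and a log2 change of -0.14 (SE 0.05, adjusted p 0.279 by edgeR).

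Marker lists of the cells that could supply these segments were read beside them. All 7 DN3 markers, among them Il2ra and Ptcra, were above 1 CPM, with summed levels of 4170 to 4491 in wild type and 4312 to 4528 in transgenic. The double positive list (7 of 8 above 1 CPM, all but Trac, which is also a member here) summed to 246 to 282 and 270.4 to 343. Most of its genes had lower means in transgenic, and only Ccr9 and Rag2 had higher ones. Cd4, Cd8a and Cd8b1 averaged 6.89, 8.19 and 8.97 CPM in wild type and 3.71, 3.23 and 4.03 in transgenic. Cd5 averaged 10.6 in wild type and 8.91 in transgenic. Ccr9 and Rag2 averaged 127 and 87.7 in wild type and 176 and 90.8 in transgenic. Groups were apart for Cd4, Cd8a, Cd8b1, Cd5 and Ccr9, against 18.8% of all tested genes, and overlapped for Rag2 and Trac. The gamma delta T cell list (5 of 7 above 1 CPM, Trdc not used) summed to 415 to 469 and 380.3 to 479, with overlapping groups, and Il23r was seen in wild-type replicate 2 alone (0.194 CPM). The B cell list (0 of 4 above 1 CPM, Pax5 at 0) summed to 0.0438 to 0.258 and 0.330 to 0.460, and the NK cell list (0 of 5, with Ncr1, Klrd1 and Eomes at 0) to 0 to 0.473 and 0.152 to 0.434. The myeloid list (2 of 5 above 1 CPM) summed to 18.2 to 22.9 and 21.7 to 25.3. The earlier progenitor list (3 of 5) summed to 60.8 to 83.2 and 76.6 to 96.4, and the mature alpha beta list (4 of 5) to 558 to 708 and 648 to 744. None of these genes was called by edgeR, and the part of any of these cell types in the delta V levels was not tested.

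Wild-type replicate 1 and transgenic replicate 3 held RNA of Y-linked genes (18522 and 16840 fragments of 4 such genes), against 16 to 26 in the other 4 libraries. Without these 2 libraries, 0 members were called by edgeR and the ratio of the delta V sum was 1.59. The ratio without Trdv5 was then 1.71, and that of the V block segments within 250 kb of Trdd1 was 1.54.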

How the data were processed

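Total RNA of DN3a thymocytes, depleted of ribosomal RNA, was sequenced in 3 wild-type and 3 transgenic libraries, per the labels' protocols. The submitters' processing notes name TopHat2, Cuffdiff and the mm10 build, without versions. The sources used here do not give the annotation, read length or strand setting. Per the file headers, the authors deposited an estimated count (raw fragments) and an FPKM value for each transcript and library. They also deposited externally scaled fragments (a signal, not used here) and their own comparison, with group FPKM, a log2 fold change, a test score (not used), a p-value and a q-value. Columns without a labelled sample numbered 0.

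Expected counts were summed per symbol and rounded. The 466 transcripts of 197 genes with a failed estimate were left out. edgeR 4.0.16 (R 4.3.3) was run with filterByExpr (minimum count 10, minimum total 15), TMM scaling, glmQLFit and glmQLFTest over 14653 genes, transgenic against wild type with no covariate, two-sided, with Benjamini-Hochberg adjustment at 0.05. The fit had 4 residual degrees of freedom and a prior of 5.61. Standard errors were derived from the F statistic. A gene was taken as detected from 0.5 fragments. Libraries held 39022281 to 46985605 fragments, and limits for a count of 0 used 3 fragments. The fit was tested on simulated data.

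Of 197 member transcripts, 191 were found by ID in GENCODE M21, which gave the sequences, strands and the 50-base words shared between genes. Of these 191, 117 had the same length as the deposited transcript. For the others, the shares of 50-base words describe the GENCODE sequence, which differs in length from the one counted. The length of 50 bases was a choice, since the read length is not known. All 178 genes overlapped their annotated position. They are annotated as 107 V genes, 7 V pseudogenes, 52 J genes, 9 J pseudogenes, 2 D genes and 1 C gene.

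Members and lists were chosen with earlier results of these data known. The rule for naming took every delta segment, every V segment with delta in its symbol, Trac, every member past the filter, the 5 alpha V and 5 alpha J segments of highest mean CPM below it (all alpha J segments were at 0), the 3 neighbours and 3 regulators of smallest p, and Dad1, Gata3, Rag1, Rag2 and Ctcf. Another gene that the rule named is not reported here. Trav14n-1, Trav15n-1 and C920008G01Rik were named after their shared sequence was seen. Alternatives were DESeq2 1.42.0, median-of-ratios scaling, no filter, limma 3.58.1 (pseudocounts of 0.1 and 0.5 on the log2 FPKM scale, mean FPKM of 1 or more), the replicate number as a block, failed loci kept, and leaving out libraries. DESeq2 without independent filtering, the V block segments within 250 kb and the delta V sum without Trdv5 were added after seeing the data.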

Additional observations from a re-analysis of the deposited data

How the results depend on the processing

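None of the members was called by edgeR, limma or DESeq2 without independent filtering under any alternative that gave a value. With its own filter on mean counts DESeq2 gave no adjusted p for any member. Of 265 member values under alternatives, 242 kept their direction and 23 reversed. The count of calls over all genes, 2 in the chosen fit, was 497 with DESeq2, 338 with DESeq2 without independent filtering, 127 with no filter on low counts, 4 with limma on log2(FPKM + 0.1), 92 with failed loci kept and 260 without the 2 libraries with Y-linked RNA. It was 1 to 498 when 1 library was left out, with 498 without wild-type replicate 1. The cause was not tested.

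Same-numbered libraries had correlations of 0.103, 0.0566 and -0.00567, so the numbers were not taken as pairs, and 3 of 6 libraries correlated best with another number than their own. With the replicate number as a block 14 genes were called, 0 of them members, and Trav21-dv12 turned to -0.16.

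Some log2 changes reversed when 1 library was left out, with ranges of -0.61 to 0.24 for Trac, -0.64 to 0.23 for Trav13-4-dv7, -1.25 to 0.11 for Trav14-2, -2.08 to 0.21 for Trav14d-1, -0.21 to 0.45 for Trav15-2-dv6-2, -0.013 to 0.64 for Trav15d-1-dv6d-1, -0.85 to 0.57 for Trav16, -0.36 to 0.89 for Trav21-dv12, -1.02 to 0.095 for Trav3-3 and -0.019 to 0.46 for Trdv5. Without the libraries with Y-linked RNA they were 0.47 for Trav13-4-dv7, -0.13 for Trav15d-1-dv6d-1, 0.032 for Trav16 and -0.35 for Trav21-dv12, and Trdv1 fell from 1.07 to 0.34. Limma gave Trav21-dv12 at -0.78 (pseudocount 0.1) and -0.20 (0.5), and Trav3-3 at 0.66 and 0.40.

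The ratio of the delta V sum without Trdv5 was 1.77 to 2.04 on leaving out a library. That of the V block segments within 250 kb of Trdd1 was 1.63 to 1.95. The ratio of all members was 494 in summed FPKM, set by the single Trdj1 fragment. With 1 to 54 fragments in the members below the filter, depth limits them.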
